A study of Mus musculus with 6 samples.

Results

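The 9 genes examined here make, load and regulate MHC class I, and they are 9 of the 32285 genes listed in the count files of this study of mouse pancreatic tumours. They were chosen by name, with earlier results of these data known: H2-K1, H2-D1, B2m, Tap1, Tap2, Tapbp, Nlrc5, H2-T23 and Erap1. Single-cell transcriptomes (droplet-based 3′ RNA sequencing, with captured molecules counted by unique molecular identifiers, UMIs) came from orthotopic tumours of KPC cells, a mouse pancreatic cancer line, grown in the pancreas of immunocompetent wild-type C57BL/6 mice. The injected cells held a vector control (OE-Vector) or a construct to overexpress Mlkl, the pseudokinase that ruptures the membrane in necroptosis (OE-MLKL), and all tumours were harvested 4 weeks after injection according to the methods of the study. Of 6 labelled libraries, OE-Vector 1 and OE-MLKL 1, 2 and 3 were analysed, and the matrices of OE-Vector 2 and 3 were not analysed here. The mice were 6 to 8 weeks old when injected. The methods of the study describe 3 tumours in each group with cells loaded tumour by tumour, while the labels do not tie a library to an animal. With a single OE-Vector library a difference between the labelled groups cannot be told apart from a difference between libraries. The overexpression is a property of the injected cells, so that macrophages, neutrophils, dendritic cells and T cells were host cells without the construct.

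MHC class I molecules present peptides from inside the cell to CD8 T cells. A polymorphic heavy chain (H2-K1 or H2-D1 in these mice) pairs with B2m, the invariant light chain. The TAP transporter (Tap1 and Tap2) moves peptides made by the proteasome into the endoplasmic reticulum, where tapasin (Tapbp) holds empty class I molecules at the transporter and the aminopeptidase Erap1 trims peptides to length. Nlrc5 is the transactivator of class I genes, and H2-T23 encodes Qa-1, a non-classical heavy chain that is the ligand of the CD94 and NKG2A receptor on NK cells and some T cells. Interferon gamma induces most of these genes, and low class I on cancer cells is a known route of escape from T cells.

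The heavy-chain gene H2-K1 occupies bases 33996017 to 34000347 of chromosome 17 (GRCm38, minus strand) and H2-D1 bases 35262730 to 35267499 (plus strand). Tapbp (33915899 to 33929292), Tap1 (34187553 to 34197225) and Tap2 (34203527 to 34216321) lie on the plus strand of the same chromosome and H2-T23 (36029773 to 36032855) on its minus strand. B2m is on chromosome 2 from 122147686 to 122153083, Nlrc5 on chromosome 8 from 94434356 to 94527272 and Erap1 on chromosome 13 from 74639568 to 74693201, all on the plus strand. All 9 are protein-coding. Heavy-chain genes are related in sequence, so reads shared between them could be lost or split in counting. The levels of H2-K1, H2-D1, H2-T23 and the Q genes carry that uncertainty, whose size was not measured. Tapbp overlaps Zbtb22 on the same strand, and Tap1 overlaps Psmb9 on the other strand.

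To show the promoters of genes whose levels are compared here, the 200 bases before the transcript start are shown for the genes of both classical heavy chains, the light chain and H2-T23. The table of RefSeq promoters used here (GRCm38.p6) matched 7 of the 9 genes, all but Tap2 and Nlrc5. Windows of 250 bases before to 50 bases after the start were searched on both strands for GAAANNGAAA (the interferon-stimulated response element), AANNGAAA (the shorter site of interferon regulatory factors, which lies within the former), GGGANNNCCC (a site of the kappaB type), TGACGC (the core of the cyclic AMP response element in class I promoters) and ATTGG (the inverted CCAAT box). The shorter interferon letters were chosen after the H2-K1 sequence was seen. Capitals mark the matches.
H2-K1 (chr17:34000334-34000533, minus strand): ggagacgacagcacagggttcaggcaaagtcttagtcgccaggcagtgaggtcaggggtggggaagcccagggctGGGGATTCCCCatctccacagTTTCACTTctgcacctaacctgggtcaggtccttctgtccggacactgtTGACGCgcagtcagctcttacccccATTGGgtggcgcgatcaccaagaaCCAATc
H2-D1 (chr17:35262894-35263093, plus strand): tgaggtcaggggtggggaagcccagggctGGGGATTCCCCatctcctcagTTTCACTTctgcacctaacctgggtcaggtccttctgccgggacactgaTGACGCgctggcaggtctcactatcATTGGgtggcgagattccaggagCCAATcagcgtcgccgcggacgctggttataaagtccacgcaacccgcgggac
B2m (chr2:122147487-122147686, plus strand): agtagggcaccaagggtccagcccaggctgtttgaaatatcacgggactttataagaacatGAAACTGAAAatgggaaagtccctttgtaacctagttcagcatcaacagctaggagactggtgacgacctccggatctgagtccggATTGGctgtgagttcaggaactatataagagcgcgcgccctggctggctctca
H2-T23 (chr17:36032702-36032901, minus strand): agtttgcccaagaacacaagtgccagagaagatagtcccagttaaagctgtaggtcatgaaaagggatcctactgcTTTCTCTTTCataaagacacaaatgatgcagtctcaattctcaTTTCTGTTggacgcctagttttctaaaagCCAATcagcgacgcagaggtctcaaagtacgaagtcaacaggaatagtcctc

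Read from left to right, H2-K1 and H2-D1 carry the kappaB-type site, the shorter interferon site, TGACGC and a pair of CCAAT boxes in the same order. Over 120 aligned bases that begin 20 bases before the kappaB-type match, 109 were identical between H2-K1 and H2-D1. GAAANNGAAA was present in the windows of 3 of the 7 genes (B2m, H2-T23 and Erap1), against 3.49% of all 27025 promoter windows. AANNGAAA was present in 5 of 7 (24.2% of all windows), the kappaB-type letters in 2 (5.40%), TGACGC in 2 (7.50%) and the CCAAT box in 6 (37.9%). Tap1 and Tapbp held only CCAAT boxes among these letters. A match is a description of the sequence, and binding was not measured.

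Cell types were assigned cell by cell from fixed markers, none of which is a class I gene, and not by clustering. Of 74545 cells, 58066 fell into 5 types: 16351 cancer cells, 10270 macrophages, 28074 neutrophils, 398 dendritic cells and 2973 T cells. Median depths per cell ranged over libraries from 13037.5 to 26512 UMIs in cancer cells and from 746.5 to 1430 UMIs in neutrophils. The summed level of each type's own marker list was 2346 to 4269 counts per 1e6 UMIs (CPM) in cancer cells, 14399 to 18776 in macrophages, 70848 to 82168 in neutrophils, 2152 to 4263 in dendritic cells and 4618 to 6133 in T cells, and no own marker was at 0 in any library. The cancer list (keratins, Epcam and others) summed to 138 to 468 CPM in the immune types. The study separated cancer cells from pancreatic duct cells by copy number, a step that was not run here. Cells gated as cancer cells may therefore include normal epithelial cells. Shared barcodes between any pair of libraries numbered 73 to 134.

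The targeted gene was examined first. Mlkl stood at 16.2 CPM in cancer cells of the library labelled OE-Vector 1 and at 8.65, 13.1 and 20.3 CPM in those labelled OE-MLKL 1, 2 and 3, so that the labels were not borne out by this count. Whether the transcript of the construct carries the 3′ end that is counted is not given in the sources used here. The names OE-Vector and OE-MLKL below mean the libraries labelled so.

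Levels are given as CPM of the summed UMIs of a type in a library, and they are compared within a gene and not between genes, since 3′ counts were not scaled to length. Of the 5 types, cancer cells held the lowest CPM of H2-K1, H2-D1, B2m, Tap1, Tap2, Nlrc5 and H2-T23. These members make heavy and light chains, the transporter and the transactivator. Tapbp was lowest in T cells and Erap1 in neutrophils. CPM is a share of the UMIs of a type, and depth differed between types, so the order did not always hold per cell. In OE-Vector 1 the 2254 cancer cells held 69107886 UMIs and the 2054 macrophages 18151727 UMIs. With H2-K1 at 877 and 1744 CPM there, its mean count per cell was higher in cancer cells than in macrophages. The same held in OE-MLKL 3, but not in OE-MLKL 1 or 2. At full depth, H2-K1 had a UMI in 98.4% of cancer cells and in 74.7% of neutrophils of OE-Vector 1.

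**Figure D1:**
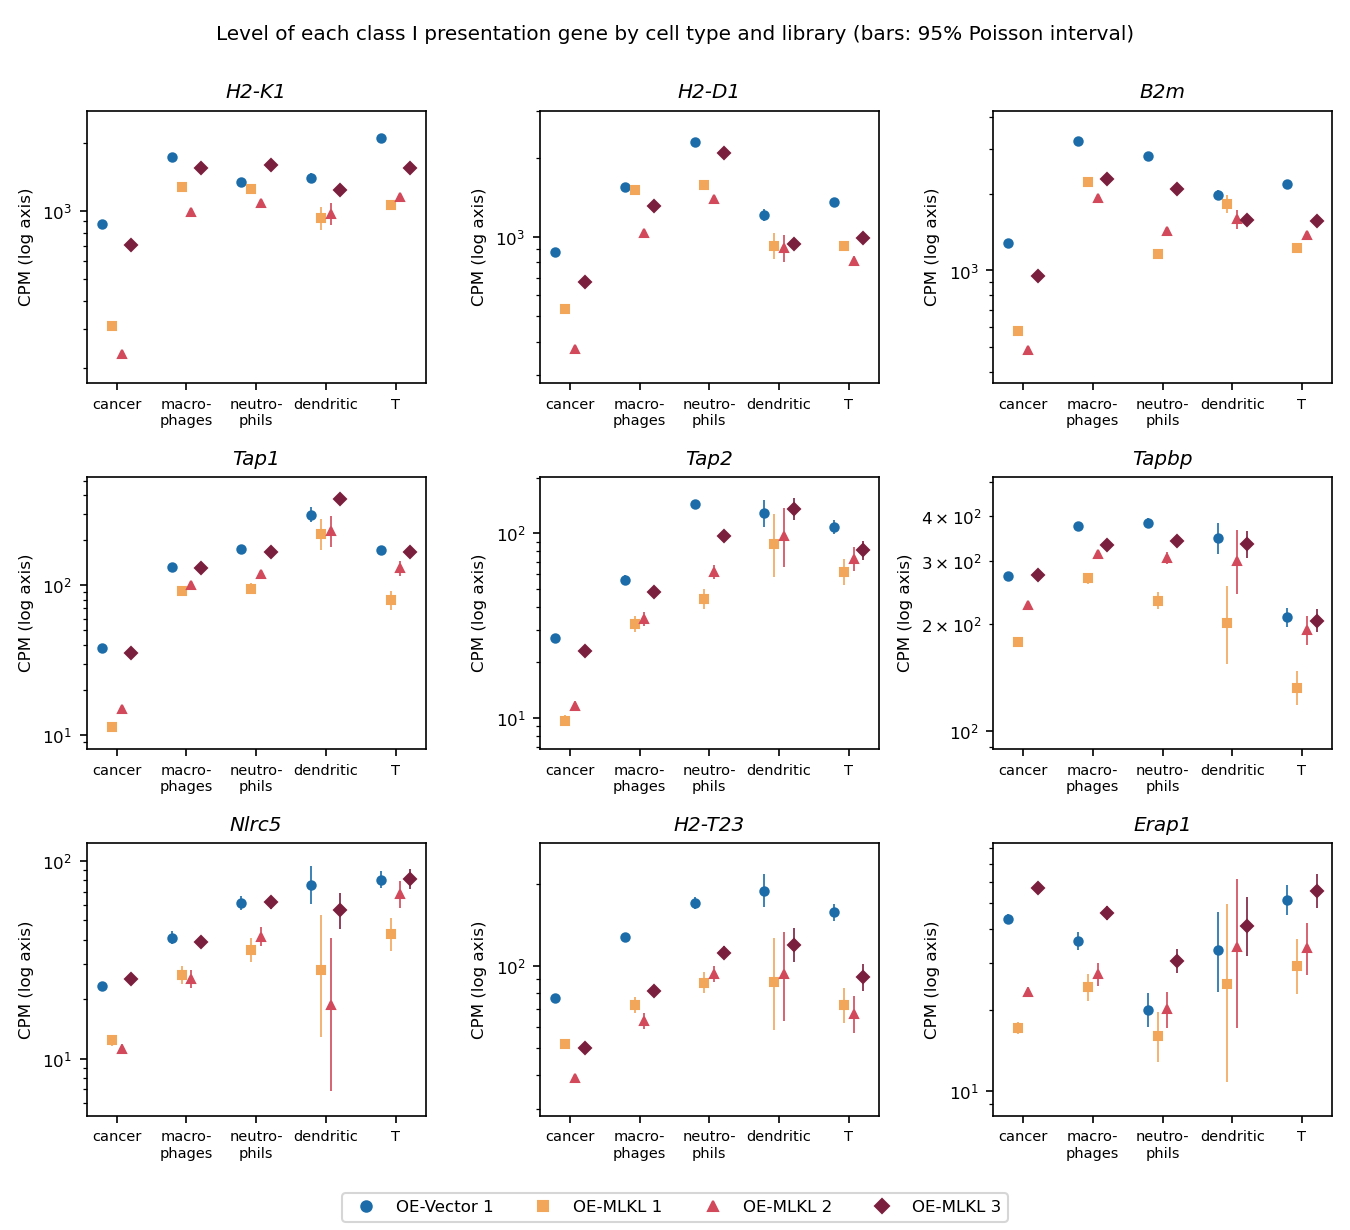
Level of each gene (CPM, log axis) in each of 5 cell types, with a point per library (circle OE-Vector 1, square, triangle and diamond OE-MLKL 1, 2 and 3) and exact 95% Poisson intervals as bars, many of them smaller than the point. Cancer cells sit lowest for H2-K1, H2-D1, B2m, Tap1, Tap2, Nlrc5 and H2-T23, and within cancer cells OE-Vector 1 and OE-MLKL 3 lie above OE-MLKL 1 and 2 for 8 of the 9 genes, H2-T23 being the exception.

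H2-K1, the Kb heavy chain, averaged 531 CPM ± 310 (SD, n = 4 libraries) in cancer cells. It reached 1137 ± 226 in dendritic cells, 1326 ± 217 in neutrophils, 1394 ± 329 in macrophages and 1471 ± 476 in T cells. The ranges of the 4 immune types overlapped each other, and none overlapped that of cancer cells. H2-D1, the Db heavy chain, followed another order, from 615 ± 214 CPM in cancer cells through dendritic cells (996 ± 145), T cells (1021 ± 237) and macrophages (1352 ± 237) to neutrophils (1835 ± 423). Neutrophils exceeded macrophages for H2-D1 in 4 of 4 libraries, although the ranges overlapped. B2m averaged 827 ± 366 CPM in cancer cells and 2415 ± 565 in macrophages, with T cells, dendritic cells and neutrophils between them (1586 to 1870), and cancer cells were lowest in each library.

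Of the transporter genes, Tap1 set dendritic cells apart among the 5 types. Tap1 was at 25 CPM ± 13.7 in cancer cells (OE-Vector 1 38.1, OE-MLKL 1 11.4, OE-MLKL 2 15.0 and OE-MLKL 3 35.4). Dendritic cells held 280 ± 71.8 CPM, and their lowest library (219) lay above the highest library of every other type among these 5. Macrophages, T cells and neutrophils lay between 113 and 138 CPM on average, with overlapping ranges. Tap2 gave the same outer types on average, 17.9 ± 8.55 CPM in cancer cells and 112 ± 23.7 in dendritic cells. For Tap2, dendritic cells overlapped neutrophils and exceeded them in 3 of 4 libraries. In OE-Vector 1 Tap2 stood at 129 CPM in dendritic cells and at 144 CPM in neutrophils. Macrophages (42.7 ± 11.3) stood below T cells (81.1 ± 19.9) without overlap.

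Nlrc5 was lowest in cancer cells (18.1 CPM ± 7.29) and highest in T cells (68.0 ± 17.9), which exceeded neutrophils (49.96 ± 13.4) in 4 of 4 libraries. H2-T23 ran from 54.5 ± 15.9 CPM in cancer cells to 123 ± 46.9 in dendritic cells, with overlapping ranges between all neighbours in that order. Tapbp ran from 184 ± 35.2 CPM in T cells to 323 ± 45.2 in macrophages, and cancer cells (237 ± 45.8) exceeded T cells in 4 of 4 libraries. Erap1 ran from 21.6 ± 6.15 CPM in neutrophils to 42.6 ± 12.9 in T cells. Only the step from macrophages to neutrophils held in 4 of 4 libraries for Erap1.

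To compare types within libraries, each immune type was set against cancer cells in a fit of 20 sums with the library as a term (edgeR quasi-likelihood test, Benjamini-Hochberg adjustment over 14595 genes, threshold 0.05). In macrophages 8 of the 9 genes were called higher than in cancer cells and 0 lower, beside 31.9% higher, 35.1% lower and 67.0% in either direction among all genes. Neutrophils gave 8 higher and 1 lower (35.8%, 43.8% and 79.6% of all genes). Dendritic cells gave 8 higher and 0 lower (22.6%, 30.9% and 53.5%), and T cells 8 higher and 1 lower (29.3%, 34.7% and 63.9%). The median log2 difference of the members was 1.39 in macrophages, 1.76 in neutrophils, 1.33 in dendritic cells and 0.98 in T cells, beside medians of all genes of -0.05, -0.17, -0.20 and -0.05. Scaling by library size alone moved those medians of all genes to -0.25, -0.45, -0.35 and -0.02. It also gave T cells 7 members called higher, without Erap1.

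Tap1 had the largest difference of the members in each immune type: a log2 difference of 2.53 ± 0.18 (SE) in macrophages, 2.87 ± 0.18 in neutrophils, 3.75 ± 0.19 in dendritic cells and 2.53 ± 0.18 in T cells, with adjusted p-values of 1.75e-10, 3.82e-11, 4.50e-12 and 2.56e-10 in edgeR. H2-K1 was higher by 1.72 ± 0.18, 1.76 ± 0.18, 1.38 ± 0.18 and 1.56 ± 0.18, and B2m by 1.82 ± 0.19, 1.51 ± 0.18, 1.33 ± 0.19 and 0.98 ± 0.18, in the same order. The heavy and light chains thus took a larger share of UMIs in all 4 immune types than in cancer cells. Nlrc5 ranged from 1.12 ± 0.16 in macrophages to 1.94 ± 0.16 in T cells, and H2-T23 from 0.76 ± 0.12 in T cells to 1.37 ± 0.12 in neutrophils.

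The exceptions were Tapbp and Erap1, which edit and trim peptides. Tapbp was lower in T cells than in cancer cells by a log2 difference of -0.39 ± 0.11 (adjusted p = 0.00473 in edgeR), a call that was lost without OE-MLKL 3 (-0.21, adjusted p = 0.189), while other alternatives ranged in adjusted p from 0.0036 to 0.0491. Erap1 did not pass the test in macrophages (0.22 ± 0.13) or dendritic cells (0.08 ± 0.18). It was called higher in T cells (0.33 ± 0.14, adjusted p = 0.0440) and lower in neutrophils (-0.31 ± 0.14, adjusted p = 0.0396). Neither Erap1 call held under all alternatives, whose adjusted p-values ran from 0.00556 to 0.16 in T cells and from 0.00122 to 0.586 in neutrophils. In neutrophils the call was lost without OE-MLKL 1 (adjusted p = 0.0572), OE-MLKL 3 (0.475) or OE-Vector 1 (0.586), and in T cells without OE-MLKL 1 (0.0811) or OE-MLKL 2 (0.16).

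**Figure D2:**
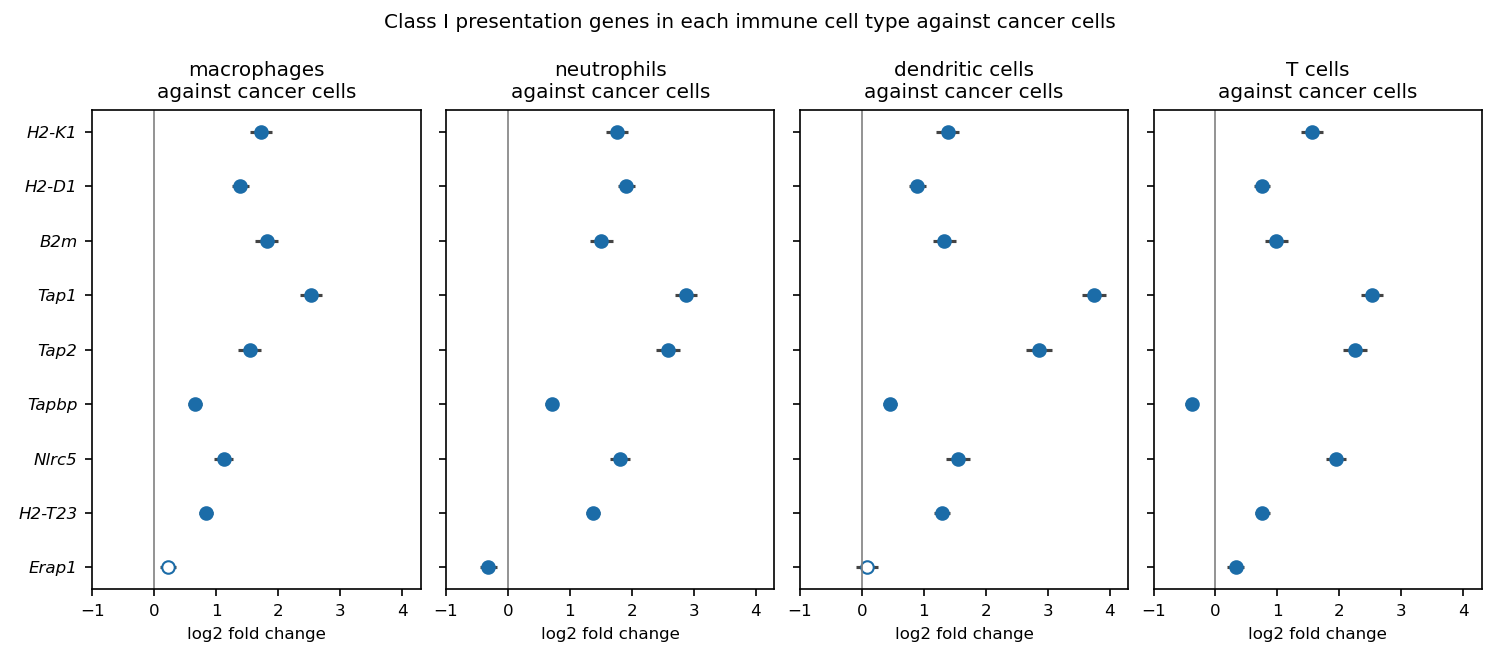
Log2 fold change of each gene in macrophages, neutrophils, dendritic cells and T cells against cancer cells (x axis, bars are SE, filled points have an adjusted p under 0.05 in edgeR). Tap1 is the rightmost gene in all 4 panels, at 2.53 to 3.75, and Erap1 lies nearest to 0 in macrophages, neutrophils, dendritic cells and T cells.

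Other genes of the pathway were read as lists, whose counts are to be set beside the shares of all genes given above for each type. Of the immunoproteasome and its activator (Psmb8, Psmb9, Psmb10, Psme1 and Psme2, which cut proteins into class I peptides), 4 of 5 were called higher in macrophages, 5 in neutrophils, 4 in dendritic cells and 3 in T cells, and none was called lower. Psmb9, a catalytic subunit, was the highest of the list in each, from 3.42 ± 0.22 in macrophages to 5.25 ± 0.24 in dendritic cells. Psmb9 rose from 15.6 CPM on average in cancer cells to 489 in dendritic cells. Psmb8, another catalytic subunit, was higher by 2.73 to 4.29, whereas Psme1, an activator subunit, was higher by 0.34 in neutrophils and by 1.94 in dendritic cells. The neutrophil call of Psme1 was lost by library size alone (0.0440, adjusted p = 0.734 in edgeR), without the filter on low counts, in deeper cells, and without OE-MLKL 2 (0.0997) or OE-MLKL 3 (0.0590).

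Chaperones of peptide loading were called in both directions. Of Calr, Canx, Pdia3, Tapbpl and Hspa5, 4 were called lower and 1 higher in neutrophils and in T cells. In macrophages 3 were called higher, and in dendritic cells 1 was called higher and 2 lower. Among all genes 43.8% and 34.7% were called lower in neutrophils and T cells, and 31.9% higher in macrophages. In dendritic cells 53.5% of all genes were called in either direction. Tapbpl, the tapasin-related peptide editor, was the member called higher in all 4, by 0.71 to 1.36. Calr, the chaperone calreticulin, differed by 0.58 in macrophages, by -1.10 in neutrophils and by -0.35 in T cells. The T cell difference of Calr (adjusted p = 0.0213 in edgeR) lost its call without OE-MLKL 3 (0.499) or OE-Vector 1 (0.278), and its alternatives ran from 0.0114 to 0.499. Of 12 other class I genes (Q, T and M genes with Cd1d1 and Mr1, which present lipids and metabolites), 10 were tested, and 9, 9, 7 and 8 were called higher in macrophages, neutrophils, dendritic cells and T cells, with H2-Q7 at 4.56 to 6.92. Mr1 was called lower in neutrophils and in dendritic cells. H2-T10 was not listed in the files.

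Regulators were also read against cancer cells. Of 11, 10 were called higher in macrophages, 8 in neutrophils, 8 in dendritic cells and 5 in T cells. Among all genes 31.9%, 35.8%, 22.6% and 29.3% were called higher in the same order. Rfx5 alone was called lower in neutrophils and Stat2 alone in T cells. As 63.9% of all genes were called in either direction in T cells, the T cell count is not read as a trait of the list. Irf1, an interferon-induced factor at class I promoters, was higher by 0.62, 2.29 and 0.46 in macrophages, neutrophils and dendritic cells and at 0.11 ± 0.16 in T cells, where it did not pass. The dendritic cell call of Irf1 was lost under 6 alternatives, with an adjusted p of 0.0513 to 0.240 in edgeR, among them library size alone (0.31) and leaving out OE-MLKL 2 (0.31) or OE-MLKL 3 (0.56). Ifng, which encodes interferon gamma, stood at 137 CPM or more in T cells of each library and at no more than 2.22 CPM in any library of the other 4 types.

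The genes most alike to the class I group were found from the correlation of log2 CPM over the 20 sums of type and library, with the mean of the 9 standardised members as reference and 9020 genes of at least 10 CPM on average. The 10 with the highest Pearson r were Trim30a (0.93), Actr2 (0.92), Cdc42 (0.91), Ccdc88b (0.90), Tmem273 (0.90), Ighm (0.90), St8sia4 (0.89), Trim12c (0.89), Nfkbie (0.89) and Psmb9 (0.89). The 20 sums share libraries and types, so that these values are descriptions. Within the group, each member was correlated with the mean of the other 8 at r = 0.75 to 0.91, except Tapbp (0.43) and Erap1 (0.25).

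The main comparison of the study set OE-MLKL against OE-Vector. In cancer cells H2-K1 stood at 877 CPM in OE-Vector 1, beside 310, 233 and 706 CPM in OE-MLKL 1, 2 and 3. B2m stood at 1286 and at 581, 487 and 955 CPM. OE-Vector 1 was above all 3 OE-MLKL libraries for both, and OE-MLKL 3 was nearer to OE-Vector 1 than to the other OE-MLKL libraries.

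H2-K1 differed by a log2 fold change of -1.24 ± 0.51 (SE) and B2m by -1.07 ± 0.39, and the other 7 genes by -1.05 to -0.39. None of the 9 passed the edgeR test in cancer cells, where 0.00591% of 16934 genes were called in either direction, with an adjusted p of 0.9996 for each member. At an unadjusted p under 0.05 there were 4 of 9 members (H2-K1, B2m, Tap2 and H2-T23) and 782 of all genes, of which 503 were lower (2.97% of all tested), and DESeq2 called none of the 9 and 98 genes in all. The median log2 fold change was -0.86 over the members and 0.03 over all genes.

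The other types gave the same picture of lower fitted values without a call. In macrophages, neutrophils, dendritic cells and T cells none of the 9 was called, beside 0%, 0%, 0.0978% and 0.00861% of all genes called in either direction. DESeq2 likewise called none of the 9 in any type, among 89, 90, 3 and 8 genes it called. The medians of the members were -0.57, -0.74, -0.36 and -0.62, beside medians of all genes of 0.05, 0.06, 0.05 and 0.02. The fitted log2 fold change was below 0 for all 9 members in cancer cells, macrophages, neutrophils and T cells. It was below 0 for 8 of 9 in dendritic cells, where Erap1 was at 0.01. Scaling by library size alone turned Erap1 in neutrophils to 0.15, and so did leaving out OE-MLKL 1 (0.04). Members with an unadjusted p under 0.05 numbered 1 of 9 in macrophages, 2 in neutrophils, 2 in dendritic cells and 1 in T cells, beside 934, 1210, 368 and 578 of all genes. All 6 of these member values were lower, as were 3.39%, 5.21%, 2.41% and 2.42% of all genes at that level.

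**Figure D3:**
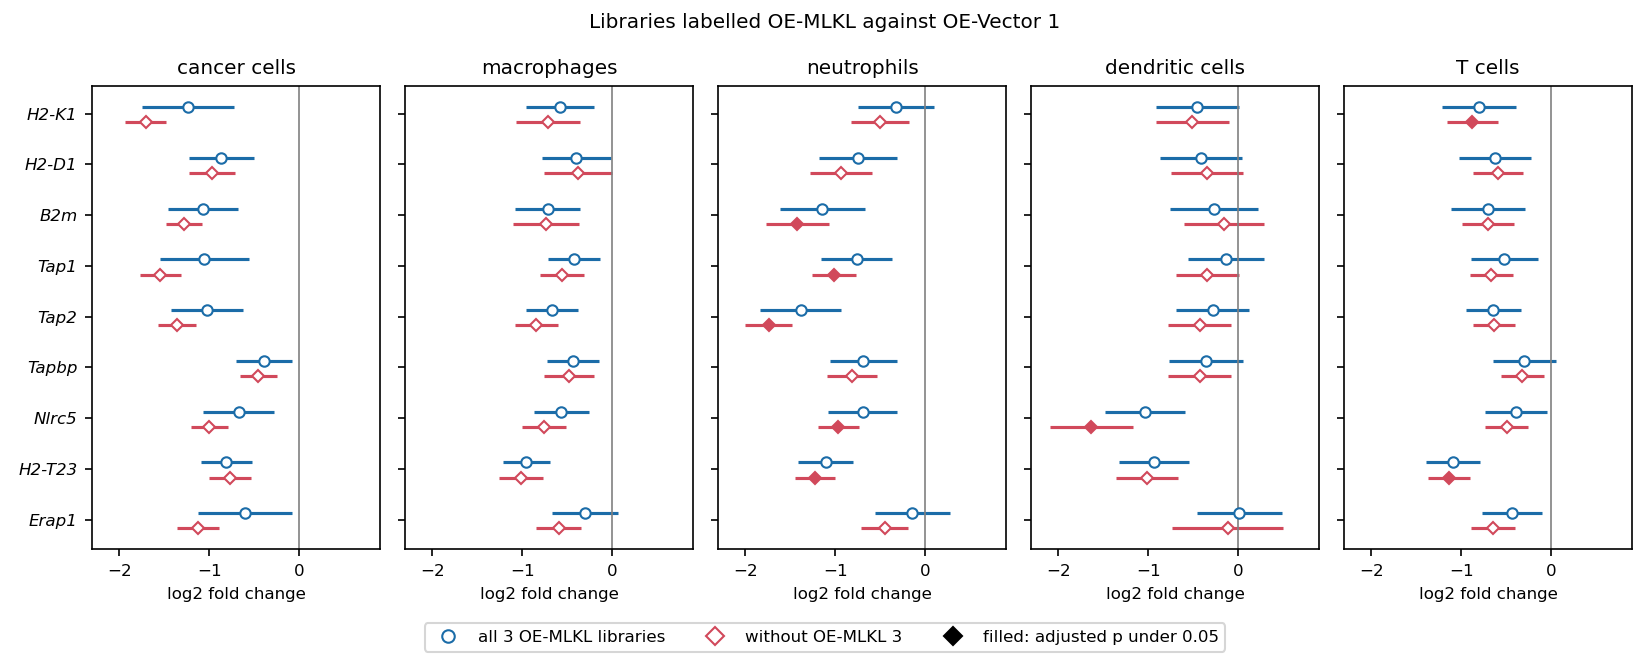
Log2 fold change of each gene between the libraries labelled OE-MLKL and OE-Vector 1 in 5 cell types (x axis, bars are SE). Circles use all 3 OE-MLKL libraries and none reaches an adjusted p under 0.05, and diamonds leave out OE-MLKL 3, with filled diamonds for 5 genes in neutrophils, Nlrc5 in dendritic cells, and H2-K1 and H2-T23 in T cells.

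OE-Vector 1 lay above all 3 OE-MLKL libraries for 6 of 9 genes in cancer cells (17.3% of all genes tested), 8 in macrophages (17.2%), 6 in neutrophils (15.4%), 6 in dendritic cells (20.7%) and 7 in T cells (18.1%), in CPM. In the other 12 of the 45 pairs of gene and type it lay within the OE-MLKL range. H2-D1, B2m and H2-T23 were above in all 5 types. The 4 libraries supply all 5 types, so that the types are not independent of each other in this count.

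H2-T23, the Qa-1 heavy chain, showed this most evenly. In cancer cells it stood at 76.6 CPM in OE-Vector 1 and at 51.9, 38.9 and 50.3 in OE-MLKL 1, 2 and 3. In neutrophils the values were 171 and 87.2, 93.8 and 112, and in T cells 158 and 71.9, 66.8 and 91.2. OE-MLKL 3 was with the other OE-MLKL libraries for this gene, unlike for H2-K1 or B2m in cancer cells. In macrophages it stood at 128 and at 72.3, 62.9 and 81.2 CPM, and in dendritic cells at 190 and at 87.7, 93.5 and 120, the last from 28 to 205 UMIs a library. The log2 fold changes were -0.81 ± 0.28, -0.95 ± 0.26, -1.11 ± 0.31, -0.94 ± 0.39 and -1.09 ± 0.30 in cancer cells, macrophages, neutrophils, dendritic cells and T cells, all with an unadjusted p under 0.05 but adjusted p-values in edgeR of 0.9996, 0.651, 0.542, 0.943 and 0.705. Over the alternatives these log2 fold changes stayed between -1.22 and -0.70.

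Tap2 in neutrophils had the largest fitted fold change of any member, with 144 CPM in OE-Vector 1 and 44.1, 61.6 and 96.9 CPM in OE-MLKL 1, 2 and 3, a log2 fold change of -1.38 ± 0.45 (adjusted p = 0.542 in edgeR). Tapbp, which tethers class I to this transporter, moved less in the same cells (384 CPM against 232, 306 and 341). H2-K1 in neutrophils did not separate the groups at all, with 1345 CPM in OE-Vector 1 and 1258, 1089 and 1611 CPM in OE-MLKL 1, 2 and 3. Nlrc5 in dendritic cells stood at 76.0 CPM against 28.2, 18.7 and 56.2, from 82, 9, 6 and 90 UMIs.

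OE-MLKL 3 set much of the spread. Without it, the spread in a group fit came from OE-MLKL 1 and 2 alone, so calls from that fit cannot tell groups from libraries. In cancer cells its Tap1 (35.4 CPM), Tapbp (273), Nlrc5 (25.3) and Erap1 (56.6) stood beside 38.1, 273, 23.3 and 43.8 CPM in OE-Vector 1. Without OE-MLKL 3, 5 members were called lower in neutrophils (B2m, Tap1, Tap2, Nlrc5 and H2-T23, adjusted p 0.00411 to 0.0340), where 12.5% of all genes were then called. In dendritic cells Nlrc5 was called (adjusted p = 0.0233, 2.39% of all genes), and in T cells H2-K1 and H2-T23 (0.0419 and 0.00026, 7.52%). None was called in cancer cells (0.823%) or macrophages (2.46%), where H2-K1 in cancer cells came to -1.70 with an adjusted p of 0.0502. Over the other alternatives the adjusted p-values of these 8 calls ran from 0.15 to 1. Leaving out OE-MLKL 1 or OE-MLKL 2 gave no call of a member in any type.

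Markers of other cells and depth moved with the same libraries. In cancer cells the macrophage list summed to 218 CPM in OE-Vector 1 and to 113, 166 and 361 CPM in OE-MLKL 1, 2 and 3, the fibroblast list to 171 CPM and to 105, 108 and 149.6 CPM, the T cell list to 34.3 CPM and to 23.5, 21.3 and 35.5 CPM and the monocyte list to 721 CPM and to 376, 288 and 431 CPM, with none of their genes at 0. By library, 1 of 12 T cell genes, 1 to 2 of 6 monocyte genes and 2 to 3 of 7 fibroblast genes reached 10 CPM there. Of the 12 macrophage genes, 4 to 10 did. Most of these sums thus rested on few genes, and whether cancer cells express those genes themselves was not tested. These 4 lists were lower in OE-MLKL 1 and 2 than in OE-Vector 1 and OE-MLKL 3, as most class I genes were. The same held for the endothelial list (21.5 CPM, and 6.88, 8.34 and 10.7 CPM). It also held for the B cell list (3.66 CPM, and 1.52, 2.05 and 3.21 CPM). The neutrophil list (289 CPM, and 187, 346 and 628 CPM) had another order. So did the dendritic list (72.2 CPM, and 66.5, 72.7 and 76.4 CPM) and the NK list (16.1 CPM, and 17.5, 13.9 and 18.6 CPM). The own list of cancer cells stood at 4269 CPM and at 2346, 2974 and 3379 CPM. In T cells the NK list (Ncr1, Gzma and others) summed to 3598 CPM in OE-Vector 1 and to 414, 724 and 1786 CPM in OE-MLKL 1, 2 and 3, with 1, 2, 3 and 0 of its 7 genes at 0. Only 3, 3, 4 and 4 of its genes reached 10 CPM in the same order, so that the sum need not stand for NK cells. In neutrophils the monocyte list (Ly6c2, Ccr2 and others) summed to 1031 CPM in OE-Vector 1 and to 6968, 8851 and 3444 CPM, with none of its 6 genes at 0. In macrophages it summed to 494 CPM in OE-Vector 1 and to 1545, 1273 and 424 CPM, again with none at 0. Free RNA, read from barcodes of at most 100 UMIs, held H2-K1 at 1341, 653, 542 and 1104 CPM in OE-Vector 1 and OE-MLKL 1, 2 and 3, above the level in cancer cells of each library. Median depth of cancer cells was 26512, 14061.5, 13037.5 and 21577 UMIs. Their part in the results was not tested. With an assumed 10% of the UMIs of each sum taken off as free RNA, the log2 fold change of H2-K1 in cancer cells was -1.31.

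Whether the group difference in an immune type differed from that in cancer cells was tested as an interaction. No member was called in macrophages, neutrophils, dendritic cells or T cells, beside 0.0187%, 0.187%, 0% and 0.00624% of 16019 genes in either direction. H2-K1 had the largest value in neutrophils, a log2 difference of differences of 0.88 ± 0.35 (adjusted p = 0.341 in edgeR). It was 0.65 ± 0.35 in macrophages, 0.77 ± 0.35 in dendritic cells and 0.48 ± 0.35 in T cells, positive in the fit of each immune type but not past the threshold. Without OE-MLKL 3, H2-K1 was called in macrophages (1.01, adjusted p = 0.0238, 3.04% of all genes), neutrophils (1.20, 0.00413, 6.54%) and dendritic cells (1.13, 0.0336, 0.649%), Tap1 was called in macrophages (1.02, 0.0427), and none was called in T cells (1.45%). Over the other alternatives the adjusted p-values of these 4 calls ran from 0.0991 to 1. DESeq2 called no member in any of these comparisons, among 18, 269, 37 and 13 genes it called, and at an unadjusted p under 0.05 edgeR had 911, 1813, 853 and 899 genes.

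Among the companion genes, Psmb9 in cancer cells stood at 28.8 CPM in OE-Vector 1 and at 5.94, 7.89 and 19.8 CPM in OE-MLKL 1, 2 and 3 (log2 fold change -1.53 ± 0.52, adjusted p = 0.9996 in edgeR). Of the 5 pathway lists, none had a called gene in any of the 5 types. Without OE-MLKL 3, Psmb8 (-1.70, adjusted p = 0.0370 in edgeR) and Psmb9 (-2.07, 0.0389) were called in cancer cells, and Psmb9 also in macrophages (-1.21, 0.0484) and neutrophils (-1.44, 0.00945). Their differences from cancer cells were then called in T cells (1.57, 0.00111 for Psmb8 and 1.44, 0.00359 for Psmb9) and macrophages (0.97, 0.0219 and 0.88, 0.0443), and that of Psmb8 in dendritic cells (1.08, 0.0320). The immunoproteasome list had medians of -1.04, -0.66, -0.89, -0.63 and -0.42 in cancer cells, macrophages, neutrophils, dendritic cells and T cells. Ifng in T cells stood at 254 CPM in OE-Vector 1 and at 137, 147 and 263 CPM in OE-MLKL 1, 2 and 3, the libraries with high class I in cancer cells being also those with high Ifng in T cells. The part of Ifng in the class I levels was not tested.

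Cancer cells were then divided within each library by an interferon response that uses no class I gene. Each cell was thinned to 2000 UMIs. Cells with at least 2 UMIs of 11 guanylate-binding and immunity-related GTPase genes (Gbp2, Irgm1, Igtp and others, induced by interferon gamma) were called marked and cells with 0 unmarked, while cells with 1 UMI were left out. Marked cells made up 34.5% of cancer cells in OE-Vector 1 (exact 95% binomial interval 32.5 to 36.5), 8.36% in OE-MLKL 1 (7.62 to 9.15), 12.3% in OE-MLKL 2 (11.5 to 13.2) and 31.6% in OE-MLKL 3 (29.9 to 33.4). The shares in OE-Vector 1 and OE-MLKL 3 overlapped in these intervals, and those of OE-MLKL 1 and 2 were far lower. Of the marked cells, 240, 240, 313 and 288 held exactly 2 UMIs, and 485, 817, 1038 and 659 cells held 1. The shares depended on the limit and on depth. At a limit of 4 UMIs they were 18.2%, 2.25%, 4.87% and 15.95% in OE-Vector 1 and OE-MLKL 1, 2 and 3, and after thinning to 5000 UMIs they were 55.7%, 19.1%, 25.4% and 55.0%.

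All 9 members were called higher in marked than in unmarked cancer cells, beside 3.02% of 10615 genes called higher, 1.09% lower and 4.12% in either direction (edgeR, library as a term), and each was higher in 4 of 4 libraries. The median log2 difference of the members was 1.004 and that of all genes -0.01. Tap1 stood at 67.3 CPM in marked and 13.7 CPM in unmarked cells of OE-Vector 1. In OE-MLKL 1, 2 and 3 the marked cells held 26.4, 57.2 and 76.3 CPM and the unmarked 7.34, 9.74 and 15.3 CPM, so that every library's marked cells lay above every library's unmarked cells. The log2 difference of Tap1 was 2.32 ± 0.14 (adjusted p = 1.26e-21), the largest of the 9.

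H2-K1 rose less, from 651 to 1146 CPM in OE-Vector 1, from 266 to 545 in OE-MLKL 1, from 183 to 501 in OE-MLKL 2 and from 571 to 973 in OE-MLKL 3, a log2 difference of 1.004 ± 0.05 (adjusted p = 3.21e-23 in edgeR). Marked cells of OE-MLKL 1 and 2 thus held less H2-K1 than unmarked cells of OE-Vector 1 and OE-MLKL 3. B2m rose by 0.90 ± 0.04, H2-D1 by 0.78 ± 0.04 and H2-T23 by 1.17 ± 0.10. Tap2 rose by 1.48 ± 0.17, Nlrc5 by 1.37 ± 0.15 and Tapbp by 0.87 ± 0.05. Erap1 had the smallest rise, 0.64 ± 0.12 (adjusted p = 0.000143), and all 9 calls held under each alternative run for this split, with adjusted p-values of at most 0.0365. Removal of free RNA was not among these alternatives, and markers of immune cells were not compared between marked and unmarked cells. The part of RNA from other cells in this difference was not tested.

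**Figure D4:**
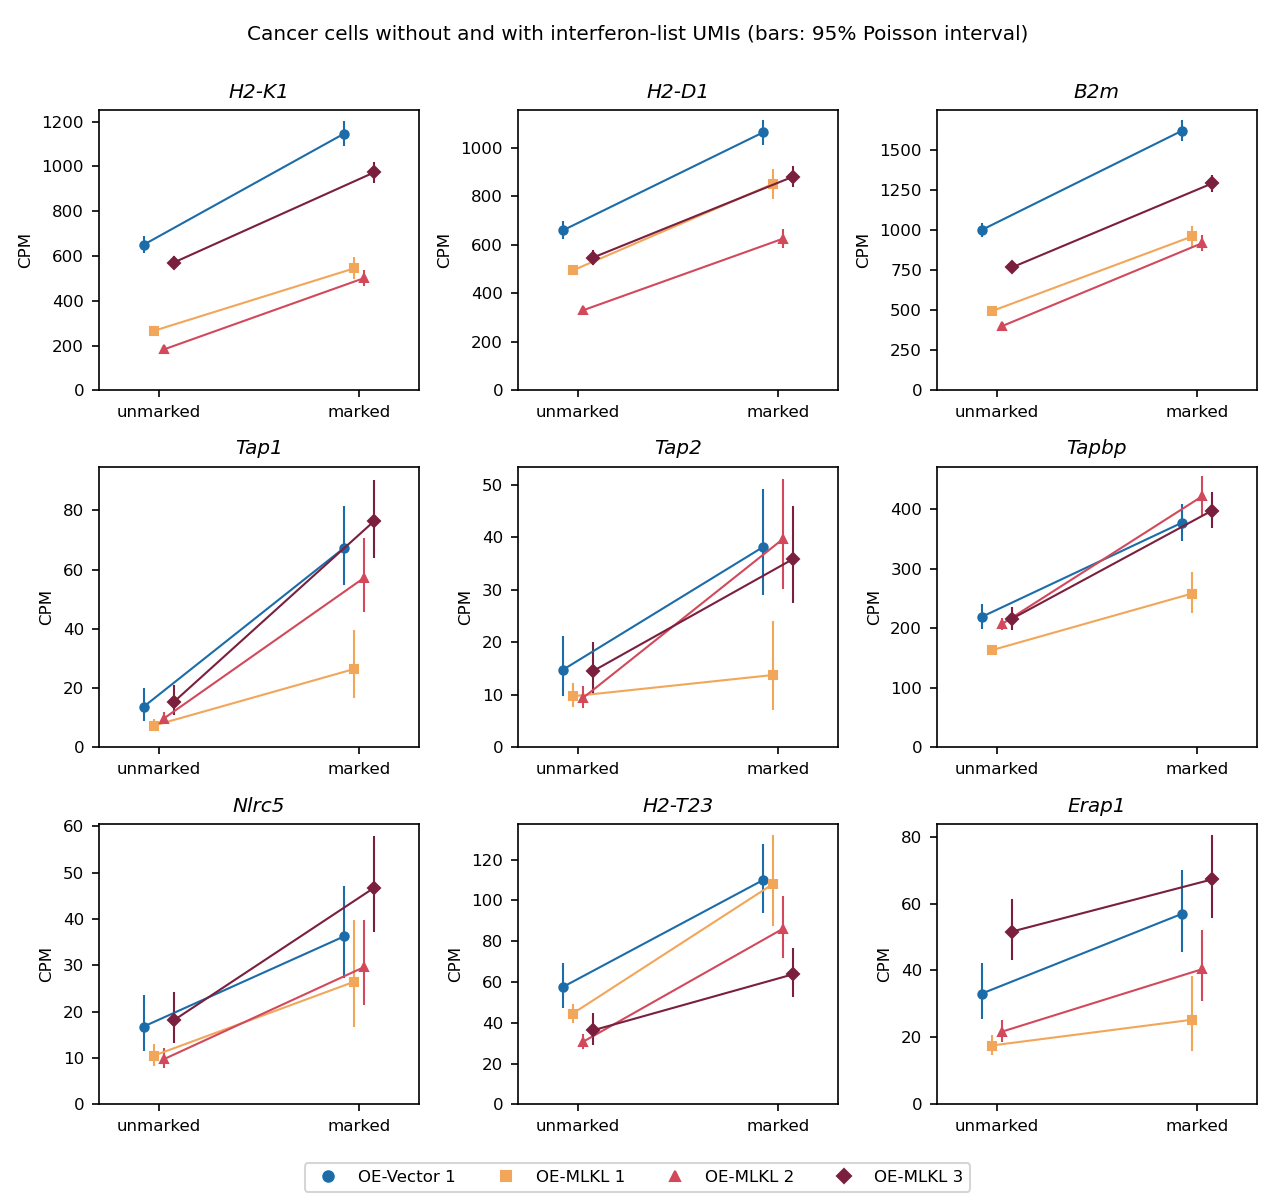
Level of each gene (CPM, linear axis from 0) in unmarked and marked cancer cells, with a line per library and exact 95% Poisson intervals. Each of the 9 genes is higher in marked cells in all 4 libraries, with a ratio for Tap1 of 3.60 to 5.87 and for H2-D1 of 1.61 to 1.90.

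Among unmarked cells alone, OE-Vector 1 stood above all 3 OE-MLKL libraries for H2-K1 (651 against 183 to 571 CPM), H2-D1 (660 against 330.1 to 548), B2m (1001 against 400.1 to 767), H2-T23 (57.5 against 30.6 to 44.6), Tap2 (14.8 against 9.39 to 14.5) and Tapbp (219 against 163 to 216). For Tap2 and Tapbp the highest OE-MLKL library came close to OE-Vector 1. Tap1 (13.7 against 7.34 to 15.3), Nlrc5 (16.8 against 9.74 to 18.1) and Erap1 (33.1 against 17.6 to 51.6) overlapped. Among marked cells OE-Vector 1 stood above all 3 for H2-K1, H2-D1, B2m and H2-T23 (110 against 63.8 to 108 CPM). It lay within the OE-MLKL range there for Tap1, Tap2 (38.2 against 13.8 to 39.7), Tapbp (378 against 259 to 422), Nlrc5 and Erap1. These are values of 1 against 3 libraries, with no test and with no share over all genes to set beside them.

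Among the companion genes, Psmb9 rose by 2.38 ± 0.20 and Irf1 by 1.70 ± 0.08 in marked cells. All 5 immunoproteasome genes were called higher, 2 of 5 loading genes (Tapbpl by 1.44 ± 0.16, and Calr by 0.14 ± 0.04), 2 of 6 tested other class I genes (H2-Q4 and H2-T22) and 5 of 11 regulators. Ciita, the class II transactivator, was the highest regulator, at 3.53 ± 0.28. Calr was the weakest, with an adjusted p of 0.0489 in edgeR and 0.0521 to 0.395 where its call was lost. It was lost when any of OE-Vector 1 (0.199), OE-MLKL 1 (0.0823), OE-MLKL 2 (0.118) and OE-MLKL 3 (0.119) was left out.

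Heavy-chain counts were also read per cell. At full depth, H2-K1 had a UMI in 98.4% of the cancer cells from OE-Vector 1 and in 85.0%, 79.7% and 97.9% from OE-MLKL 1, 2 and 3, and H2-D1 in 99.2%, 97.7%, 94.6% and 98.3%. After thinning to 2000 UMIs, cells with 0 UMIs of H2-K1 and H2-D1 together made up 10.8% of cancer cells in OE-Vector 1 (exact 95% binomial interval 9.51 to 12.1), 28.4% in OE-MLKL 1 (27.1 to 29.6), 37.3% in OE-MLKL 2 (36.1 to 38.6) and 14.4% in OE-MLKL 3 (13.2 to 15.8). In macrophages the shares were 0.666%, 1.52%, 3.59% and 0.653% in the same order. Cancer cells exceeded macrophages in each library. At least 98.4% of cancer cells and 94.5% of macrophages reached 2000 UMIs, but only 2.58% to 22.1% of neutrophils did, so that neutrophils are not read per cell here.

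T cells without a heavy-chain UMI made up 0.238%, 2.38%, 2.05% and 0.576% of 841, 421, 440 and 694 cells. Among dendritic cells they were 1 of 106, 0 of 51 (which allows a share of up to 5.88% at 3 counts, or 6.98% as the exact 95% binomial limit), 4 of 55 and 9 of 170. Within cancer cells, 15.9% of unmarked and 4.92% of marked cells of OE-Vector 1 had none. The shares were 31.5% and 14.3% in OE-MLKL 1, 42.1% and 19.2% in OE-MLKL 2 and 20.5% and 5.24% in OE-MLKL 3. Marked cells were lower in each library. Median full depths of unmarked and marked cells were 26379 and 26359 UMIs in OE-Vector 1, while OE-MLKL 2 had 12883 and 13770. No gated type is known to lack class I, so that no background share from free RNA can be given.

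**Figure D5:**
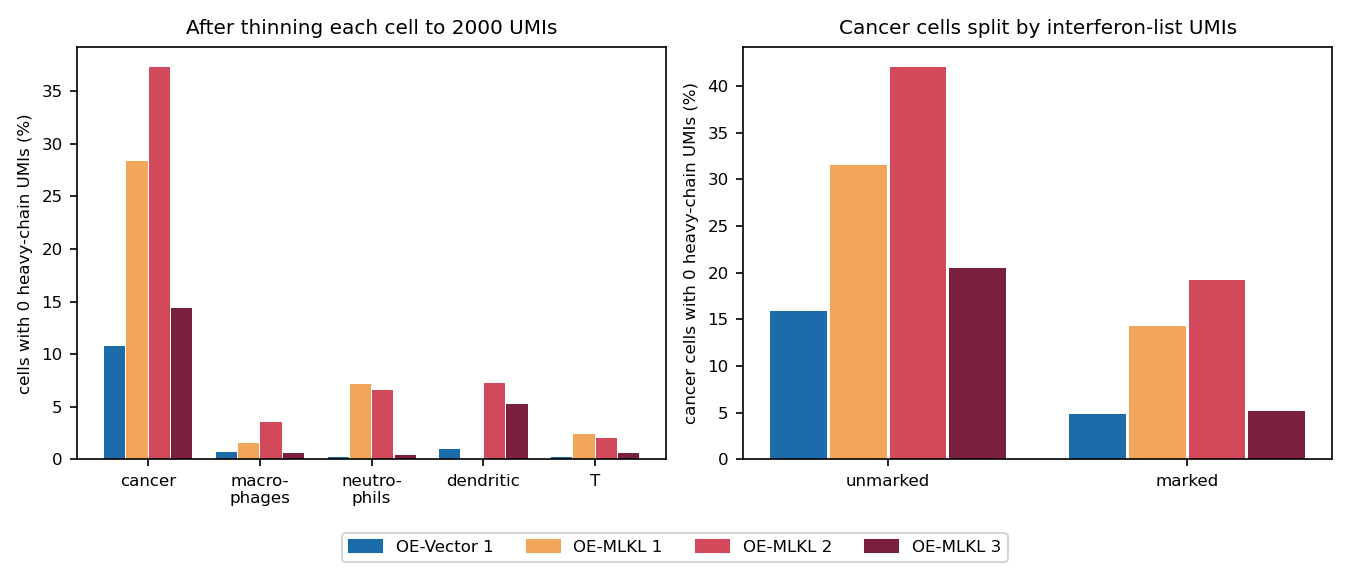
Share of cells (percent, axes from 0) with no UMI of H2-K1 or H2-D1 after thinning to 2000 UMIs, by cell type (left) and in cancer cells by interferon marking (right), with a bar per library. Cancer cells reach 37.3% in OE-MLKL 2, and macrophages stay at or under 3.59%.

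By the median over the 9 members, the libraries spread more widely in cancer cells than in the other types. Over all genes they spread more widely in neutrophils and dendritic cells. The ratio of the highest to the lowest of the 4 libraries had a median over the 9 members of 2.64 in cancer cells, beside 1.77 over all genes tested. It was 1.68 in macrophages (1.71 over all genes), 1.84 in neutrophils (1.95), 1.64 in dendritic cells (2.01) and 1.90 in T cells (1.74). The interferon list itself summed in cancer cells to 986 CPM in OE-Vector 1 and to 239.9, 353 and 950.2 CPM in OE-MLKL 1, 2 and 3. Tap1 and Tap2 had the same order among the 4 libraries, but the other members did not. H2-K1, H2-D1, B2m, Nlrc5 and H2-T23 were lowest in OE-MLKL 2, and Tapbp, Nlrc5 and Erap1 were highest in OE-MLKL 3.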

How the data were processed

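The values are UMI counts of all barcodes before cell calling, as the authors deposited them. The submitters' processing notes name Cell Ranger 2.1.1 and mm10, the file headers Cell Ranger 7.1.0 and the methods of the study another version, and whether intronic reads or strand were used is not given in the sources used here. Cells had at least 500 UMIs, over 200 genes, under 10% mitochondrial and at most 5% haemoglobin UMIs. A marker counted as present at a Poisson probability under 0.01 given 10% free RNA, and a type needed 3 own markers and no other type with more than 1/3 as many. No doublet caller was run, and 5835 cells with markers of more than 1 type and 9956 cells under 3 markers were left out. Sums per type and library (edgeR 4.0.16, TMM, filterByExpr) were tested by the quasi-likelihood test, with SE from the fold change and F. Of 1 against 3 libraries, 2 residual degrees of freedom came from OE-MLKL, and OE-Vector 1 is assumed to vary like them. DESeq2 1.42.0, R 4.3.3, Python 3.11.15 and scipy 1.17.1 were used, and the scripts were tested on simulated data. Totals were 150591289 to 169978362 UMIs a library. Intervals cover counting error only. Per the methods of the study tumours were loaded separately. The p-values of the group fits measure the spread among the OE-MLKL libraries. Those of the fits with the library as a term measure the spread left after differences between libraries are taken out. The genes named in every comparison were the 9 members with Psmb8, Psmb9, Psme1, Calr, Irf1 and 1 more gene that is not reported here, and list genes where they passed the test or were highest. Members and lists were chosen with earlier results of these data known.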

Additional observations from a re-analysis of the deposited data

How the results depend on the processing

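No paired analysis was possible because the libraries used hold only 1 OE-Vector library, so that no replicate block can be fitted. Of the alternatives run for the 15 named genes, 2074 kept direction and side of the threshold, 35 lost a call, 23 gained one and 43 reversed, and the cause was not tested. The number of genes called between the labelled groups depended most on which library was left out, with the spread of the lone OE-Vector library taken to be that of OE-MLKL: 16 to 135 in cancer cells, 8 to 332 in macrophages, 0 to 1616 in neutrophils, 0 to 126 in dendritic cells and 54 to 824 in T cells, each highest without OE-MLKL 3. For the difference from cancer cells the ranges were 1 to 469, 0 to 1008, 0 to 100 and 1 to 224 in macrophages, neutrophils, dendritic cells and T cells. OE-Vector 1 could not be left out of these comparisons.

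DESeq2 called 98, 89, 90, 3 and 8 genes between the groups in cancer cells, macrophages, neutrophils, dendritic cells and T cells, 18, 269, 37 and 13 for the difference from cancer cells in the 4 immune types, and 198 between marked and unmarked cells. Without the filter on low counts the group counts were 28, 13, 30 and 131 in macrophages, neutrophils, dendritic cells and T cells and the differences 80, 261, 48 and 58. Free RNA removal gave 0 in cancer cells, 25 in macrophages and 1 in dendritic cells, and differences of 100 in macrophages and 3 in T cells. Library size alone gave 5 in dendritic cells and differences of 11 in neutrophils and 1 in dendritic cells. The stricter gate gave 4 in dendritic cells and differences of 13, 1 and 0 in neutrophils, dendritic cells and T cells, and deeper cells gave differences of 11 in neutrophils and 0 in T cells.

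The reversals were in log2 values of results that were not called as reported. Between the groups, Erap1 turned to 0.15 in neutrophils by library size and to -0.00551 in dendritic cells by DESeq2, Irf1 in dendritic cells to 0.27 with the stricter gate, and Psme1 in T cells to 0.0283 by library size and 0.0164 with free RNA removed. Over left-out libraries Erap1 covered -0.45 to 0.0399 in neutrophils and -0.12 to 0.13 in dendritic cells, Irf1 -0.11 to 0.19 in macrophages, -0.47 to 0.17 in dendritic cells and -0.65 to 0.0534 in T cells, and Psme1 -0.11 to 0.0429 in T cells. In dendritic against cancer cells, library size turned Erap1 to -0.0738 and Calr to -0.0668, and left-out libraries took Erap1 over -0.0178 to 0.31. For the difference from cancer cells in macrophages, Psme1 turned to 0.0439 by RLE scaling, 0.0686 by library size, 0.0184 without the filter, 0.0438 by DESeq2 and 0.0416 with the stricter gate, and over left-out libraries it covered -0.00168 to 0.0125, Tapbp -0.15 to 0.00363 and Nlrc5 -0.000105 to 0.26. In neutrophils, H2-D1 turned to -0.11 in deeper cells and -0.00383 with free RNA removed, and Psme1 to -0.0773 and -0.0144. Library size turned B2m to 0.0952, Nlrc5 to 0.16 and Irf1 to 0.13 there, and the stricter gate Nlrc5 to 0.0184 and Irf1 to 0.0347. Over left-out libraries B2m covered -0.23 to 0.0364, Nlrc5 -0.18 to 0.0235, Psme1 -0.0837 to 0.21 and Irf1 -0.20 to 0.0735. In dendritic cells Tapbp turned to 0.00411 without the filter and Irf1 covered -0.0305 to 0.36. In T cells Tapbp covered -0.0261 to 0.0847, Nlrc5 -0.0493 to 0.46 and Erap1 -0.000866 to 0.44.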

Other observations

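Cells outside the 5 types also carried class I genes, from few cells and with no test. Endothelial cells (22 to 46 cells a library) held H2-K1 at 3268 CPM in OE-Vector 1 and at 1383 to 1833 CPM in the OE-MLKL libraries. Their B2m stood at 4212 CPM in OE-Vector 1 and at 1668 to 1991 CPM in OE-MLKL. OE-Vector 1 was above every OE-MLKL library for both. Fibroblasts (26 to 65 cells a library) held H2-K1 at 672 CPM in OE-Vector 1 and at 787 to 1040 CPM in OE-MLKL, and B2m at 844 CPM and 946 to 1195 CPM. Their H2-T23 lay the other way, at 82.1 CPM in OE-Vector 1 and 33.4 to 46.1 CPM in OE-MLKL, as did Nlrc5, at 19.5 CPM and 2.78 to 12.3 CPM from 1 to 7 UMIs a library. In B cells (36 to 115 cells a library) H2-K1 of OE-Vector 1, 1078 CPM, lay within the OE-MLKL range of 1021 to 1190 CPM.

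H2-K1 in the cells left out of the types followed the order of the libraries seen in cancer cells. Among cells under 3 markers, H2-K1 stood at 1324 CPM in OE-Vector 1 and at 385, 338 and 952 CPM in OE-MLKL 1, 2 and 3. Among cells with markers of more than 1 type it stood at 1111 CPM and at 497, 408 and 942 CPM. H2-T23 had another order than in cancer cells, at 127 CPM in OE-Vector 1 and 55.5, 42.9 and 67.6 CPM in OE-MLKL 1, 2 and 3 among cells under 3 markers.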
